A study of Mus musculus with 13 samples.

Results

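The immediate-early and feedback genes are 43 mouse genes taken from a list of symbols. The list was chosen with earlier results of these data known. All 43 were found among the 23418 genes of the count table, and all 43 passed the filter on low counts that kept 15412 genes for testing. They comprise 4 FOS and 3 JUN subunits of the AP-1 transcription factor, 3 further bZIP factors, 3 EGR and 4 KLF zinc-finger factors, and 5 other early factors. The remaining members are grouped here as feedback genes. They are 5 MAP kinase phosphatases, 5 proteins of mRNA decay and 4 genes of cytokine and NF-kB feedback. The rest are 3 GADD45 stress proteins and 4 kinases or GTPases.

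Bulk RNA sequencing was available for 3 groups of mouse cells. FAPs labelled as taken from skeletal muscle gave 4 libraries (replicates 2 to 5), FAPs labelled as taken from lung gave 5 libraries (replicates 1 to 5), and MEFs gave 4 libraries (replicates 1 to 4). In this field FAP stands for fibro/adipogenic progenitor, a mesenchymal cell that lies between muscle fibres and supports their repair, and MEF for mouse embryonic fibroblast. The stated aim of the series was to find signals by which the muscle niche regulates its stem cells, called satellite cells. Strain, genotype, age, the gate used to isolate FAPs, any time in culture and the number of animals behind a library are not stated in the sources used here. Tissue, cell type and handling before lysis therefore cannot be told apart in any comparison below, and p-values measure the spread between these libraries, which may be technical in part.

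Immediate-early genes are transcribed within minutes of a stimulus, without need of new protein synthesis. Growth factors and stress act on them through MAP kinases and through serum response factor, which binds a DNA element called the CArG box, while cytokines act through NF-kB and STAT factors. Their first products are transcription factors such as FOS, JUN and EGR1. The same stimulus induces the inhibitors that end the response: DUSP phosphatases remove phosphate from MAP kinases, ZFP36 proteins bring AU-rich mRNAs to deadenylation, and IkB-alpha, A20 and SOCS3 restrain NF-kB and JAK-STAT signalling. In satellite cells and in stromal cells, Fos and its relatives are known among the earliest transcripts of activation.

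Letters that match the elements of these routes lie around the start of some members. RefSeq promoter windows (build GRCm38.p6, 250 bases before to 50 after a start) were given for 34 of the 43 members, and each was searched on both strands. No window was given for Egr1, Egr3, Fosl1, Ier2, Klf10, Myc, Nfkbiz, Sik1 and Zfp36l2, so these members were not searched. For the other members, Fos included, an element outside the window would be missed. A CArG box, spelled as CC, then 6 letters that are A or T, then GG, lay in the windows of 3 members, Egr2, Dusp5 and Zfp36, which is 8.82% of the members with a window, against 1.81% of all 27025 genes with one. A kappa-B consensus of 10 bases lay in those of 8 members (23.5%), Fos, Fosb, Fosl2, Maff, Egr2, Ier3, Nfkbia and Tnfaip3, against 9.55% of all genes. The palindromic cAMP element was found in 3 members (8.82%, against 2.03%), the AP-1 heptamer TGANTCA in 3 (8.82%, against 8.97%), the EGR consensus in 1 (2.94%, against 0.707%) and the TATA hexamer TATAAA in 8 (23.5%, against 15.7%). A match describes these letters only and names no bound factor. The following stretches of 120 bases are shown as examples of both kinds of match, each read 5′ to 3′ on the strand of its gene. The CArG boxes of Egr2 and Dusp5 and the kappa-B matches of Nfkbia and Ier3 are in capitals.
Egr2: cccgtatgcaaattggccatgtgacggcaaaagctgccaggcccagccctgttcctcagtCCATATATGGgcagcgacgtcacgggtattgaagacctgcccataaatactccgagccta
Dusp5: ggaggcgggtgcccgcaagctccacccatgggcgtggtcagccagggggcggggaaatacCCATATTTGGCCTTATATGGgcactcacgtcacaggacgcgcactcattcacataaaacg
Nfkbia: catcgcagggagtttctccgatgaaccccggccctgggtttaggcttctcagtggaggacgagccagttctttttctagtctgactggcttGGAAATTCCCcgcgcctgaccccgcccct
Ier3: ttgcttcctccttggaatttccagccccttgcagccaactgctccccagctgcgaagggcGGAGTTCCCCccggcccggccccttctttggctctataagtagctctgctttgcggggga

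The Egr2 stretch is chr10:67537737-67537856 on the plus strand, and its box begins at position −72 from a RefSeq start. The stretch lies in no exon of the 3 GENCODE M21 coding transcripts of Egr2. That of Dusp5 is chr19:53529003-53529122 on the plus strand, holds a pair of adjoining boxes, and its last 14 bases overlap an exon of the GENCODE transcript. The Nfkbia stretch is chr12:55492648-55492767 on the minus strand, with the match at position −29 from the start, and the Ier3 stretch is chr17:35821561-35821680 on the plus strand, with the match at position −92. Neither overlaps an exon of its gene. Of the matches not shown, the 120-base stretches around the Zfp36 CArG box and the Fosl2 kappa-B matches lie wholly in an exon. That around the Maff kappa-B match lies inside 3 transcripts of the gene.

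The other end of these genes carries a shared element as well. The AU-rich heptamer TATTTAT, the core of the site bound by ZFP36 proteins, was present at least once in the longest annotated 3′ UTR of 26 of the 43 members (60.5%), at 0.848 copies per kb, against 28.0% of 20592 genes and 0.311 copies per kb. Pim1 and Ier3 had 4 copies each, and Plk3, Dusp1, Fosl2, Zfp36, Zfp36l1 and Zfp36l2 had 3 each. This feature was searched for after the expression values had been seen. Windows of 27 bases (GENCODE M21, GRCm38, plus-sense of the mRNA) are shown for members whose heptamers lie close together, or that lead the comparisons below, with each heptamer in capitals.
Pim1 (chr17:29495688-29495714, plus strand): ttttaatgTATTTATTTATTTATTTAT
Ier3 (chr17:35822482-35822508, plus strand): gtctaattaaTATTTATgTATTTATgt
Plk3 (chr4:117128729-117128755, minus strand): catTATTTATggaccactttTATTTAT
Zfp36 (chr7:28376962-28376988, minus strand): cccttTATTTATgacgacttTATTTAT
Socs3 (chr11:117966140-117966166, minus strand): tttgcacataTATTTATATTTATactc
Fos (chr12:85477104-85477130, plus strand): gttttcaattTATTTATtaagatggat
Nfkbia (chr12:55489609-55489635, minus strand): gaccacgtttTATTTATtgtgcttttg

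Depth was 41327292 to 44699463 counts in muscle FAP libraries, 28636183 to 35464622 in lung FAP libraries and 33756915 to 41466585 in MEF libraries. Markers of the labelled cells were present in both FAP groups: Pdgfra, the receptor by which FAPs are usually defined, averaged 1390 CPM in muscle FAPs, 800 CPM in lung FAPs and 29.4 CPM in MEFs, and Dcn, a fibroblast proteoglycan, averaged 20790, 13920 and 74.0 CPM in the same order. Of the 8 FAP and fibroblast markers listed, 7 were higher in muscle FAPs than in MEFs and 1 did not pass. In lung FAPs, 6 were higher than in MEFs, 1 was lower and 1 did not pass. Of the markers of other cells in muscle FAPs, the 8 pericyte and smooth muscle markers summed to 102 to 108 CPM, the 4 mesothelial markers to 0.662 to 24.7 CPM, and the blood, endothelial, lung epithelial and muscle lists to at most 12.03 CPM each. In lung FAPs each of these lists but that of muscle fibres and satellite cells summed to more in each library, with 32.5 to 664 CPM for the 8 blood markers, 287 to 2114 CPM for pericytes and smooth muscle, and 317 to 777 CPM for mesothelium, highest in lung FAP 1. Lung FAP libraries differed among themselves: endothelial markers summed to 740 CPM in lung FAP 2, 230 CPM in lung FAP 4 and 40.5 to 78.9 CPM in the other 3, and 7 epithelial markers to 7489 CPM in lung FAP 3 against 39.8 to 118 CPM in the other 4. MEFs were not free of such markers: the blood list summed to 165 to 556 CPM and the endothelial list to 168 to 200 CPM. Their pericyte and smooth muscle list summed to 2258 to 3882 CPM, and the mesothelial, lung epithelial and muscle lists to at most 33.01 CPM each. The part of these cells in the members' differences was not tested. The 4 cycling markers summed to 2.96 to 9.51 CPM over both FAP groups, against 52.9 to 79.3 CPM in MEFs. In bulk samples, fewer cells with a transcript and less of it per cell cannot be told apart.

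Summed over the 43 genes, levels lay between 26850 and 33530 CPM in muscle FAPs, between 14080 and 31340 CPM in lung FAPs, and between 2692 and 3133 CPM in MEFs. Levels are CPM on TMM-scaled library sizes throughout, and the test is edgeR's quasi-likelihood test with Benjamini-Hochberg adjustment over all 15412 genes, called at an adjusted p under 0.05. Levels per kb of exon allow genes to be compared only roughly, since the exons of all annotated transcripts of a gene were counted. On this scale the highest members in muscle FAPs were Egr1 at 1293 ± 158, Fos at 1082 ± 139 and Junb at 756 ± 108 CPM per kb (SD, n = 4). In lung FAPs they were Fos at 1040 ± 492, Zfp36 at 691.5 ± 296 and Nfkbia at 492 ± 109 CPM per kb (SD, n = 5). These genes were measured in the same libraries, so the SDs do not measure how certain their order is. In MEFs they were Rhob at 137.5 ± 4.74, Ier3 at 94.1 ± 10.4 and Gadd45g at 80.1 ± 14.0 CPM per kb (SD, n = 4).

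**Figure D1:**
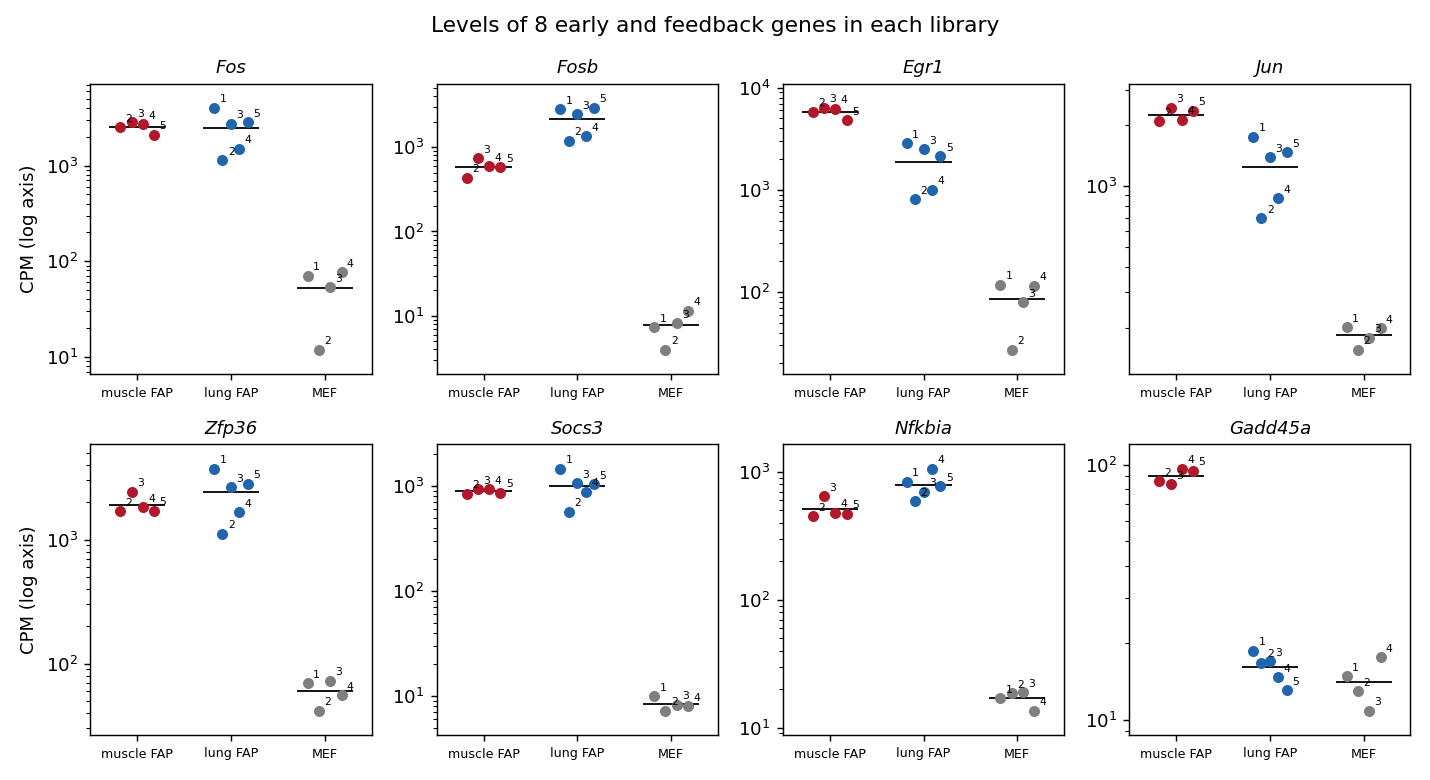
Levels of 8 members in every library, in CPM on a log axis; each point is a library with its replicate number, and the horizontal line is the group's mean. Fos overlaps between muscle FAPs (2094 to 2845 CPM) and lung FAPs (1130 to 4017 CPM), while Fosb is lower and Egr1 and Gadd45a are higher in every muscle FAP library than in any lung FAP library.

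Muscle FAPs differed from lung FAPs in 26 of the 43 genes: 22 were higher (51.2% of members, against 23.2% of all tested genes) and 4 were lower (9.30%, against 25.0%). The higher members were all 3 JUN subunits, all 3 EGR factors and all 3 GADD45 genes, with Fosl1, Maff, Mafk, Klf6, Myc, Ier2, Ier5, Dusp6, Dusp10, Btg1, Plk3, Sik1 and Rhob. The lower members were Fosb, Klf2, Klf4 and Nfkbia. The median log2 fold change of the 43 genes was 0.58, against −0.04 over all tested genes. Since the list was chosen with earlier results of these data known, these shares describe it and are no independent support. With scaling by library size only, which moved the median of all genes to −0.44, 16 members were higher and 9 lower, with Fosl2, Dusp1, Zfp36, Tnfaip3 and Socs3 added to the lower ones.

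Within the FOS family the subunits went different ways. Fosb had 434, 740, 592 and 574 CPM in muscle FAPs 2 to 5, against 2817, 1194, 2466, 1354 and 2921 CPM in lung FAPs 1 to 5. Every muscle FAP library was below every lung FAP library, and the log2 fold change was −1.88 ± 0.32 (SE; adjusted p = 2.97e-04). FOSB is the subunit whose truncated splice form is known to accumulate in neurons on repeated stimulation, and gene-level counts do not separate the forms. Fos, the founding member of the family, had 2533, 2845, 2708 and 2094 CPM in muscle FAPs, against 4017, 1130, 2743, 1496 and 2843 CPM in lung FAPs. Its groups overlapped completely in range (log2 fold change 0.06 ± 0.35 SE, adjusted p = 0.932), and the sign turned under several alternatives. Fosl1, which encodes FRA1, was low in all groups, with 13.1, 16.7, 13.9 and 9.40 CPM in muscle FAPs against 2.29, 2.71, 3.78, 5.85 and 2.65 CPM in lung FAPs. It was higher in every muscle FAP library, by a log2 fold change of 1.94 ± 0.29 (adjusted p = 3.34e-05). Fosl2, which encodes FRA2, averaged 554 ± 80.6 CPM in muscle FAPs and 539 ± 97.7 CPM in lung FAPs (SD, n = 4 and 5; adjusted p = 0.837).

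Their dimer partners were higher in muscle FAPs. Jun had 2088, 2438, 2134 and 2364 CPM in muscle FAPs, against 1758, 696.5, 1391, 871.5 and 1476 CPM in lung FAPs. The groups did not overlap, and lung FAPs 2 and 4 were the lowest libraries; the log2 fold change was 0.87 ± 0.26 (adjusted p = 0.00416) and 0.57 without those libraries. Junb, often a weaker activator than JUN, had 1465, 2036, 1832 and 1628 CPM in muscle FAPs, against 1318, 620.6, 1051, 995 and 1109 CPM in lung FAPs. The ranges did not overlap, at a log2 fold change of 0.77 ± 0.21 (adjusted p = 0.00474), a call that scaling by library size only ended (adjusted p = 0.0713). Jund, the subunit that resting cells also express, was higher by 0.79 ± 0.17 on the log2 scale (adjusted p = 0.00112). Maff and Mafk, small MAF proteins that pair with other bZIP factors, averaged 579 ± 130 and 518 ± 60.0 CPM in muscle FAPs, against 230 ± 36.7 and 176 ± 18.9 CPM in lung FAPs (SD, n = 4 and 5), with log2 fold changes of 1.33 and 1.56. Atf3, a stress-induced bZIP factor, did not pass (0.38 ± 0.31, adjusted p = 0.233), but passed without lung FAP 1 (0.64, adjusted p = 0.0223).

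The EGR factors moved in 1 direction. Egr1, the member with the highest level in muscle FAPs, had 5846, 6349, 6206 and 4782 CPM there, against 2842, 808.5, 2507, 998 and 2141 CPM in lung FAPs. The lowest muscle FAP library was above the highest lung FAP library, and the log2 fold change was 1.64 ± 0.38 (adjusted p = 0.00547). Egr2, known for its role in Schwann cells and in T-cell anergy, averaged 114 ± 13.3 CPM in muscle FAPs and 54.3 ± 15.8 CPM in lung FAPs (log2 fold change 1.07 ± 0.22, adjusted p = 2.53e-04). Egr3, itself a target of EGR1 in several cell types, was low at 12.3 ± 4.37 and 6.06 ± 1.28 CPM; it passed (1.02 ± 0.28, adjusted p = 0.00409) although the libraries overlapped, and missed the threshold with scaling by library size only (adjusted p = 0.0507).

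KLF factors did not move together. Klf6, induced on injury of several tissues, averaged 745 ± 68.5 CPM in muscle FAPs and 302 ± 15.9 CPM in lung FAPs (log2 fold change 1.30 ± 0.07, adjusted p = 9.59e-07). Klf2, a factor best known from endothelium under flow, had 35.8, 55.3, 52.3 and 74.8 CPM in muscle FAPs, against 194, 97.5, 149, 90.3 and 197 CPM in lung FAPs. All muscle FAP libraries were lower, by a log2 fold change of −1.42 ± 0.32 (adjusted p = 3.89e-04). The 8 endothelial markers summed to 3.76 to 12.03 CPM in muscle FAPs and 40.5 to 740 CPM in lung FAPs. Among the lung libraries, lung FAPs 2 and 4 were highest in these markers (740 and 230 CPM) and lowest in Klf2. The part of endothelial cells in the Klf2 difference was not tested. Klf4, which restrains proliferation in many cells, averaged 492 ± 36.2 CPM in muscle FAPs and 746 ± 226 CPM in lung FAPs, with an overlap between libraries (−0.60 ± 0.22, adjusted p = 0.0149). Klf10, a TGF-beta-induced early gene, did not pass (0.15 ± 0.08, adjusted p = 0.267).

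Among the other early factors, 3 of 5 were higher in muscle FAPs. Myc, the growth regulator, had 357, 508.5, 512 and 415 CPM in muscle FAPs, against 319, 116, 236, 164 and 265 CPM in lung FAPs. The ranges were separate, though lung FAP 1 came near muscle FAP 2 (log2 fold change 1.03 ± 0.29, adjusted p = 0.00242). Ier2 and Ier5, small nuclear proteins of the early response, were higher by 1.35 ± 0.26 and 1.09 ± 0.17 on the log2 scale (adjusted p = 2.45e-04 and 2.03e-05). Csrnp1, an AXIN1-induced nuclear protein, and Ier3, a regulator of apoptosis, did not pass at 0.29 ± 0.20 and 0.37 ± 0.19; Ier3 had 189, 320, 238 and 231 CPM in muscle FAPs, against 198.5, 158, 159, 239.5 and 193 CPM in lung FAPs, and the ranges overlapped. Csrnp1 passed without lung FAP 1 (adjusted p = 0.0452), and Ier3 without muscle FAP 2 (adjusted p = 0.0228) or without lung FAP 4 (adjusted p = 0.0161). Ier3 also passed with limma-voom (adjusted p = 0.0258), with the DESeq2 Wald test (adjusted p = 0.0488) and without lung FAPs 2 and 4 (adjusted p = 0.0362).

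**Figure D2:**
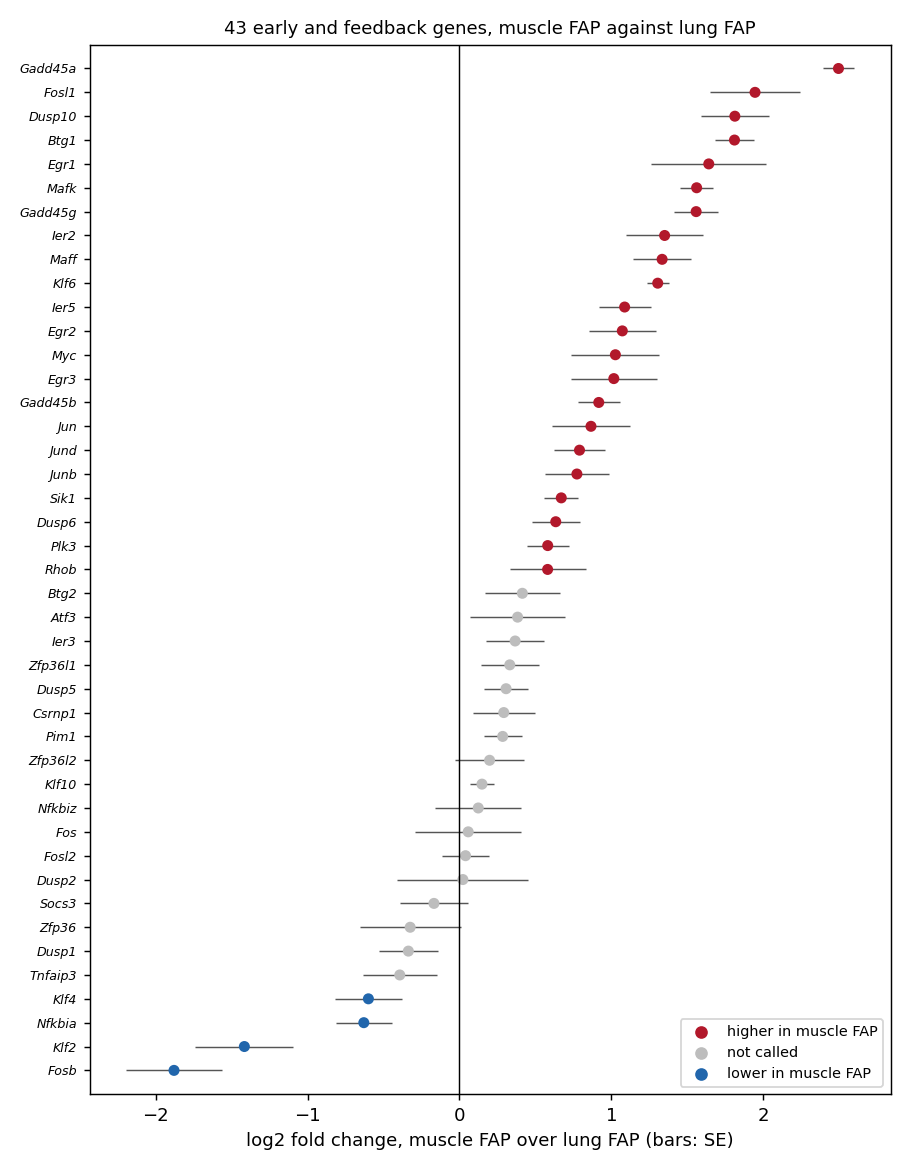
Log2 fold change of the 43 members in muscle FAPs over lung FAPs, with bars for the SE; red points were called higher, blue points lower, and grey points were not called. Gadd45a lies highest at 2.49 and Fosb lowest at −1.88, and 17 members were not called.

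The feedback genes were split by kind. Of the 5 MAP kinase phosphatases, Dusp10, which acts on JNK and p38, was the one with the largest difference: 51.0, 66.6, 67.8 and 53.8 CPM in muscle FAPs, against 10.6, 16.0, 16.0, 24.8 and 17.9 CPM in lung FAPs. The libraries were fully separated, at a log2 fold change of 1.81 ± 0.22 (adjusted p = 1.51e-06). Dusp6, a cytoplasmic ERK phosphatase, was higher at 54.3 ± 6.14 CPM in muscle FAPs against 35.0 ± 7.52 CPM in lung FAPs (0.63 ± 0.16, adjusted p = 0.00142; with scaling by library size only, 0.22 and 0.233). Dusp1, the nuclear phosphatase with the highest level of the 5, averaged 915 ± 42.0 CPM in muscle FAPs and 1155 ± 378 CPM in lung FAPs and did not pass (−0.34 ± 0.20, adjusted p = 0.172). Dusp5, a nuclear ERK phosphatase, and Dusp2, a phosphatase best known from immune cells, at 1.40 ± 0.195 CPM in muscle FAPs and 1.38 ± 0.908 CPM in lung FAPs, did not pass either (adjusted p = 0.0878 and 0.978). Dusp5 did without muscle FAP 5 (0.40, adjusted p = 0.0314) and with limma-voom (0.41, adjusted p = 0.0444).

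Of the mRNA decay proteins, Btg1 alone passed. BTG1, an antiproliferative adaptor of the CCR4-NOT deadenylase, had 493.5, 654, 630 and 522.5 CPM of mRNA in muscle FAPs, against 185, 178, 150 and 170 CPM in lung FAPs 1 to 4 and 138 CPM in lung FAP 5. Its groups were far apart (log2 fold change 1.81 ± 0.13, adjusted p = 2.55e-08). Its paralog Btg2 averaged 790 ± 110 CPM in muscle FAPs and 593 ± 213 CPM in lung FAPs (0.41 ± 0.25, adjusted p = 0.128). Btg2 passed without lung FAP 1 (adjusted p = 0.0114), with limma-voom (adjusted p = 0.0376) and with the replicate block (adjusted p = 0.0302). Zfp36, which encodes tristetraprolin, had 1686, 2437, 1831 and 1711 CPM in muscle FAPs, against 3736, 1116, 2647, 1665 and 2832 CPM in lung FAPs. The muscle FAP libraries fell inside the range of the lung FAP libraries (−0.32 ± 0.33, adjusted p = 0.373). Without lung FAPs 2 and 4, the lung libraries in which Zfp36 was lowest, it was called lower in muscle FAPs (−0.66, adjusted p = 0.0116). Its paralogs Zfp36l1 and Zfp36l2 did not pass (0.33 and 0.20, adjusted p = 0.100 and 0.396). Zfp36l1 did without lung FAP 1 (0.42, adjusted p = 0.0470), without lung FAP 5 (0.42, adjusted p = 0.0477) and with limma-voom (0.33, adjusted p = 0.047).

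None of the 4 members of cytokine and NF-kB feedback was called higher in muscle FAPs. Nfkbia, which encodes IkB-alpha, the cytoplasmic anchor of NF-kB, had 448, 647, 480 and 472 CPM in muscle FAPs, against 836.5, 591, 697, 1061 and 774.5 CPM in lung FAPs. Muscle FAP 3 alone reached into the lung range, and the log2 fold change was −0.63 ± 0.18 (adjusted p = 0.00632). Tnfaip3, which encodes the ubiquitin-editing enzyme A20, had 423, 694, 427 and 330.5 CPM in muscle FAPs, against 750, 595, 537, 661 and 533.5 CPM in lung FAPs. It did not pass with all libraries (−0.39 ± 0.24, adjusted p = 0.0817) and passed without muscle FAP 3 (−0.65, adjusted p = 0.00221). Tnfaip3 also passed with upper-quartile scaling (−0.47, adjusted p = 0.0378) and with library size only (−0.80, adjusted p = 0.0011). Socs3, the inhibitor of STAT3 signalling, averaged 895 ± 47.9 CPM in muscle FAPs and 1005 ± 324 CPM in lung FAPs (−0.17 ± 0.22, adjusted p = 0.508), and Nfkbiz, an atypical nuclear IkB, averaged 532 ± 110 and 488 ± 181 CPM (SD, n = 4 and 5; 0.12 ± 0.28, adjusted p = 0.697).

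The GADD45 genes, sensors of stress that bind MTK1 and other partners, were higher in muscle FAPs as a family. Gadd45a had 86.3, 83.8, 96.5 and 94.8 CPM in muscle FAPs, against 18.7, 16.8, 17.01, 14.7 and 13.03 CPM in lung FAPs. That was 5.63-fold by the group means, with no overlap, and the largest difference of any member (log2 fold change 2.49 ± 0.10, adjusted p = 4.41e-09). Gadd45g and Gadd45b averaged 453 ± 41.8 and 404 ± 52.5 CPM in muscle FAPs, against 154 ± 29.02 and 214 ± 34.7 CPM in lung FAPs (SD, n = 4 and 5; log2 fold changes 1.56 ± 0.15 and 0.92 ± 0.14). Sik1, a salt-inducible kinase that restrains CREB coactivators, and Plk3, a stress-responsive polo-like kinase, were higher by 0.67 ± 0.11 and 0.58 ± 0.14 on the log2 scale. Both calls ended with scaling by library size only (adjusted p = 0.0854 and 0.206). Rhob, an immediate-early GTPase of endosomes, passed at 0.58 ± 0.25 (adjusted p = 0.0272) with overlapping libraries. Its call was lost with scaling by library size only (0.19, adjusted p = 0.424) and with the compared groups alone (adjusted p = 0.0609). It was also lost without muscle FAP 5 (adjusted p = 0.0901) or without lung FAP 3 (adjusted p = 0.0541). The same held without lung FAPs 2 and 3 (adjusted p = 0.096) or 2 and 4 (adjusted p = 0.0626). Pim1, a serine/threonine kinase downstream of STATs, did not pass (0.28 ± 0.12, adjusted p = 0.0891), but passed with limma-voom (0.36, adjusted p = 0.0212).

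Against MEFs, 40 of the 43 genes were higher in muscle FAPs (93.0%, against 36.1% of all tested genes), 1 was lower (2.33%, against 37.3%) and 2 did not pass. The median log2 fold change of the members was 2.72, against −0.04 over all genes, and 13 members were higher by at least 4 on the log2 scale (30.2%, against 5.58%). In lung FAPs, 35 of the 43 were higher than in MEFs (81.4%, against 37.8%), 3 were lower (6.98%, against 36.6%) and 5 did not pass. There the median was 2.31, against 0.02 over all genes, and 12 members were higher by at least 4 (27.9%, against 6.85%). Both comparisons use the same MEF libraries. The list and the minimum of 4 were chosen with earlier results of these data known, so these shares are descriptions only. Scaling by library size only moved the median of all genes to −0.62 in muscle FAPs and −0.15 in lung FAPs over MEFs, and left 37 members higher in muscle FAPs and 34 in lung FAPs.

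The largest differences from MEFs were in inhibitors and in AP-1 and EGR factors alike. Socs3 had 843, 934, 937 and 865 CPM in muscle FAPs and 1467, 572, 1067, 884 and 1037 CPM in lung FAPs, against 9.91, 7.26, 8.29 and 8.03 CPM in MEFs. That was 107-fold in muscle FAPs and 120-fold in lung FAPs by the means, with log2 fold changes of 6.74 ± 0.10 and 6.91 ± 0.24 (edgeR adjusted p = 8.59e-12 and 5.63e-12). Fosb, at 434 to 740 CPM in muscle FAPs and 1194 to 2921 CPM in lung FAPs, had 7.37, 3.95, 8.13 and 11.5 CPM in MEFs, and its log2 fold changes were 6.24 ± 0.36 in muscle FAPs and 8.12 ± 0.42 in lung FAPs, the largest value of any member in either comparison. Fos, at 2094 to 2845 CPM in muscle FAPs and 1130 to 4017 CPM in lung FAPs, had 70.6, 11.8, 53.2 and 76.5 CPM in MEFs, where MEF 2 was far below the others, and was higher by 5.59 ± 0.64 in muscle FAPs and 5.53 ± 0.71 in lung FAPs. The lowest FAP library, lung FAP 2 at 1130 CPM, was above every MEF library. Egr1, at 4782 to 6349 CPM in muscle FAPs and 808.5 to 2842 CPM in lung FAPs, had 118, 27.1, 79.7 and 116 CPM in MEFs, with MEF 2 again lowest, and was higher by 6.09 ± 0.51 in muscle FAPs and 4.45 ± 0.62 in lung FAPs.

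Egr2 had 105, 129, 122 and 101 CPM in muscle FAPs and 72.1, 47.3, 67.1, 32.8 and 52.2 CPM in lung FAPs, against 2.45, 1.66, 1.82 and 2.17 CPM in MEFs, so that no FAP library came near a MEF library. Its log2 fold changes were 5.82 ± 0.15 in muscle FAPs and 4.75 ± 0.24 in lung FAPs. Tnfaip3, at 330.5 to 694 CPM in muscle FAPs and 533.5 to 750 CPM in lung FAPs, had 9.82, 9.19, 8.29 and 8.59 CPM in MEFs, which were close to each other, and was higher by 5.71 ± 0.23 in muscle FAPs and 6.10 ± 0.11 in lung FAPs. Nfkbia, at 448 to 647 CPM in muscle FAPs and 591 to 1061 CPM in lung FAPs, had 17.04, 18.6, 18.9 and 13.6 CPM in MEFs and was higher by 4.91 ± 0.16 and 5.54 ± 0.18 in muscle and lung FAPs. Zfp36, at 1686 to 2437 CPM in muscle FAPs and 1116 to 3736 CPM in lung FAPs, had 69.4, 41.8, 73.0 and 55.8 CPM in MEFs, all below every FAP library, and was higher by 4.997 ± 0.22 and 5.32 ± 0.36 in muscle and lung FAPs. Atf3, Nfkbiz, Egr3 and Pim1 were the remaining members above 4 on the log2 scale in both comparisons, and Sik1 was above 4 in muscle FAPs (4.27) and at 3.61 in lung FAPs.

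**Figure D3:**
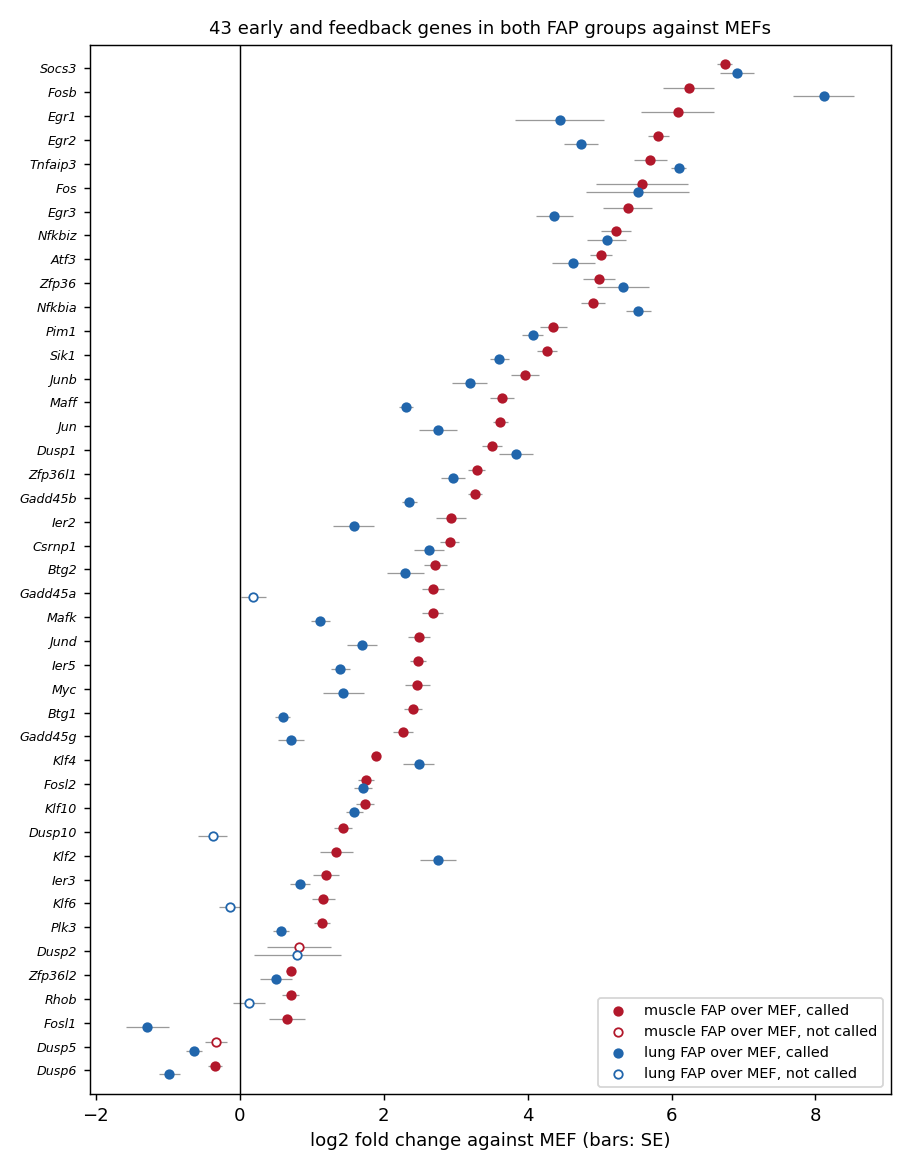
Log2 fold change of the 43 members over MEFs, red for muscle FAPs and blue for lung FAPs, with bars for the SE; open points were not called. Socs3 (6.74 in muscle FAPs, 6.91 in lung FAPs) and Fosb (6.24 and 8.12) lie farthest to the right, and Dusp5, Dusp6 and, in lung FAPs, Fosl1, Dusp10 and Klf6 lie left of 0.

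The members called lower than in MEFs were Dusp6 in both FAP groups, and Dusp5 and Fosl1 in lung FAPs. Dusp6 had 50.2, 60.2, 58.8 and 47.8 CPM in muscle FAPs and 39.0, 45.9, 32.9, 27.3 and 29.7 CPM in lung FAPs, against 74.4, 64.3, 66.7 and 70.4 CPM in MEFs. Every FAP library was below every MEF library, at −0.35 ± 0.09 in muscle FAPs (adjusted p = 0.0417) and −0.98 ± 0.14 in lung FAPs (adjusted p = 1.01e-05). The muscle call was lost without muscle FAP 2, muscle FAP 5, MEF 1 or MEF 4 (adjusted p = 0.0876, 0.0977, 0.0919 and 0.0655), with the filter of 5 CPM (0.0788) and with the replicate block (0.173). Dusp5 was lower in lung FAPs, at 9.80 ± 0.928 CPM against 15.2 ± 1.83 CPM in MEFs (−0.64 ± 0.11, adjusted p = 7.98e-04), and at 12.1 ± 2.21 CPM in muscle FAPs it missed the threshold (−0.33 ± 0.16, adjusted p = 0.0586), passing without muscle FAP 3 (adjusted p = 0.0142) or MEF 3 (adjusted p = 0.0402), and with library size only (−0.91, adjusted p = 8.24e-05) and 5 other alternatives (adjusted p = 0.0134 to 0.0477). Fosl1, at 9.40 to 16.7 CPM in muscle FAPs and 2.29 to 5.85 CPM in lung FAPs, had 6.71, 9.19, 11.04 and 6.68 CPM in MEFs. It was lower in lung FAPs (−1.28 ± 0.30, adjusted p = 4.75e-04) and higher in muscle FAPs (0.66 ± 0.25, adjusted p = 0.0438). The call in muscle FAPs was lost without muscle FAP 2, 3 or 4, lung FAP 5, or MEF 1, 2 or 4, at adjusted p of 0.0506 to 0.148, and also with scaling by library size only (0.084, adjusted p = 0.790), by upper quartile (adjusted p = 0.0651) or by DESeq2 size factors (adjusted p = 0.0514), and with no filter (adjusted p = 0.0581). Dusp2, near 1 CPM in every group, passed in neither comparison (adjusted p = 0.177 and 0.170).

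The 2 FAP groups departed from MEFs unequally for other members as well. Gadd45a was higher in muscle FAPs (2.68 ± 0.16, adjusted p = 3.84e-10) and did not pass in lung FAPs (0.19 ± 0.17, adjusted p = 0.219), where its 5 libraries overlapped the 10.9 to 17.6 CPM of MEFs. Klf6, Dusp10 and Rhob likewise passed in muscle FAPs (1.16, 1.44 and 0.71) and not in lung FAPs (−0.14, −0.38 and 0.13); Dusp10 was called lower in lung FAPs without lung FAP 4 (−0.57, adjusted p = 0.00371) and under 6 other alternatives (adjusted p = 0.00439 to 0.0482). With scaling by library size only, Rhob was not called in muscle FAPs (0.13, adjusted p = 0.566), and Klf6 was called lower in lung FAPs (−0.32, adjusted p = 0.0323). The direct test of these differences is the comparison of muscle with lung FAPs above, in which all 4 genes were higher in muscle FAPs, Rhob by the margin described there. Zfp36l2 was higher by 0.71 ± 0.06 in muscle FAPs and by 0.51 ± 0.22 in lung FAPs (adjusted p = 0.00427 and 0.0220), and the lung call was lost without lung FAP 1 or 5, or MEF 3 or 4 (adjusted p = 0.0533, 0.0769, 0.0590 and 0.0549). With scaling by library size only, neither call held, at 0.13 in muscle FAPs (adjusted p = 0.516) and 0.32 in lung FAPs (adjusted p = 0.0910).

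Levels also differed between libraries of the same group. In lung FAPs, libraries 2 and 4 were the lowest pair for 21 of the 43 genes (48.8%, against 15.9% of all tested genes) and the highest pair for 2 (4.65%, against 14.0%). The 21 hold Fos, Fosb, Fosl2, Jun, Junb and Atf3, the 3 EGR genes, Klf2 and Klf4, Myc, Csrnp1 and Ier2, and of the feedback genes Dusp1, Zfp36, Zfp36l1, Zfp36l2, Btg2, Socs3 and Nfkbiz. The highest pair was formed for Dusp5 and Gadd45b. Lung FAP 1 was the highest library for 22 members (51.2%, against 21.2%). Fos was 3.55 times as high in lung FAP 1 as in lung FAP 2, Egr1 3.52 times, and Zfp36 3.35 times. Atf3 had 1563, 514, 944, 629.5 and 1064 CPM in lung FAPs 1 to 5, and Myc 319, 116, 236, 164 and 265 CPM, the same order of high and low libraries. The median ratio of highest to lowest library in lung FAPs was 1.89 over the members with at least 20 CPM, against 1.41 over all genes at that level.

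**Figure D4:**
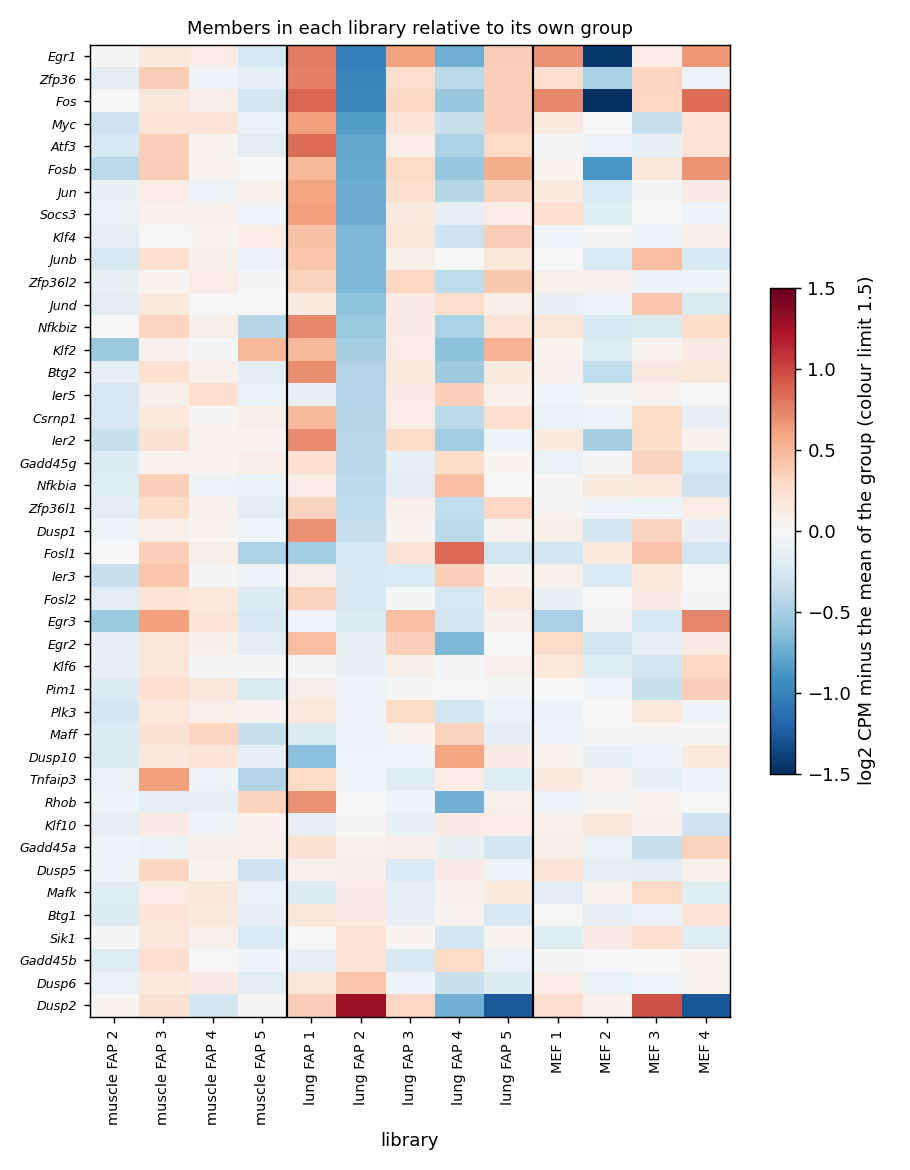
Log2 CPM of each member in each library minus the mean of its own group, with colours limited at 1.5; black lines divide muscle FAPs, lung FAPs and MEFs. Columns lung FAP 2 and, in fewer genes, lung FAP 4 are blue for the AP-1, EGR and ZFP36 genes at the top, and MEF 2 is deep blue for Egr1 and Fos.

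Lung FAP 2 and 4 are also the lung libraries highest in endothelial markers (740 and 230 CPM summed), and lung FAP 2 is the highest in the 8 pericyte and smooth muscle markers (2114 CPM, against 287 to 1328 CPM in the other 4). The part of these cells in the lower levels was not tested. Without both libraries, muscle FAPs were higher than lung FAPs in 22 members and lower in 7, the added ones being Dusp1 (−0.55, adjusted p = 0.0153), Socs3 (−0.39, adjusted p = 0.0254) and Zfp36. Each of the added genes is lowest in this same pair, so leaving the pair out raises its lung mean by construction. Fosb and Egr1 remained called, at −2.21 (adjusted p = 2.05e-05) and 1.23 (adjusted p = 0.0198).

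Muscle FAP libraries lay closer together. Muscle FAP 3 was the highest library for 31 of the 43 genes (72.1%, against 24.1% of all tested genes) and muscle FAP 2 the lowest for 27 (62.8%, against 25.6%). The differences were small, with a median ratio of highest to lowest library of 1.34 for members of at least 20 CPM, against 1.24 over all genes at that level. The widest members in this group were Tnfaip3 (2.099-fold between muscle FAP 3 and muscle FAP 5), Klf2 (2.09-fold between muscle FAP 5 and muscle FAP 2), Fosb, Ier3 and Nfkbiz. Nfkbiz had 524, 653, 561.5 and 388 CPM in muscle FAPs 2 to 5. In MEFs, replicate 2 was lowest for 16 members (37.2%, against 15.4%), led by Fos, which was 6.48 times as high in MEF 4 as in MEF 2, and Egr1, 4.36 times as high in MEF 1 as in MEF 2.

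Some ratios between members within a library set the FAP groups apart, and they are given as descriptions, since they were picked after the levels had been seen. They are ratios of CPM, not corrected for length, and can be compared between libraries and not with 1. Egr1 over Fos lay between 2.23 and 2.31 in muscle FAPs, between 0.667 and 0.914 in lung FAPs, and between 1.499 and 2.295 in MEFs, although Fos itself spread 3.55-fold over the lung FAP libraries. Fosb over Fos lay between 0.171 and 0.274 in muscle FAPs, between 0.701 and 1.06 in lung FAPs, and between 0.104 and 0.3345 in MEFs. Gadd45a over Gadd45b lay between 0.176 and 0.245 in muscle FAPs, between 0.0566 and 0.0973 in lung FAPs, and between 0.258 and 0.413 in MEFs. For these 3 ratios, no muscle FAP library overlapped a lung FAP library, lung FAPs 2 and 4 included.

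**Figure D5:**
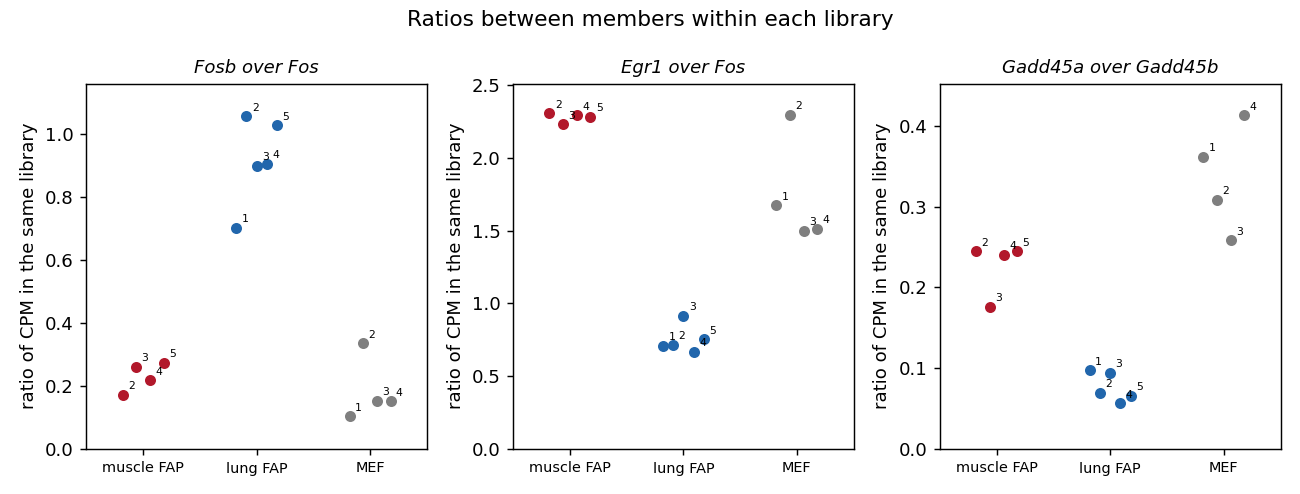
Ratios of CPM between members within each library, on linear axes that start at 0; each point is a library with its replicate number. Egr1 over Fos lies between 2.23 and 2.31 in muscle FAPs and between 0.667 and 0.914 in lung FAPs, with lung FAPs 2 and 4 among the others.

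Genes around the members were read from lists of the same pathways, and the gene named from a list is the called one with the largest change, a mean of 5 CPM being required on the higher side. Of all tested genes, 23.2% were higher and 25.0% lower in muscle than in lung FAPs, 36.1% and 37.3% in muscle FAPs than in MEFs, and 37.8% and 36.6% in lung FAPs than in MEFs. The small lists below are counted against these shares, and no list was tested as a set. Of 29 further immediate-early genes tested, 21 were higher in muscle than in lung FAPs, 1 was lower and 7 did not pass. The lower gene was Npas4, a neuronal early gene under the 5 CPM minimum, with no count in any muscle FAP library, against 0.133 to 2.31 CPM in lung FAPs. Of those at or above it, Arc, also a neuronal early gene, led with 103 ± 10.9 CPM in muscle FAPs against 10.1 ± 6.61 CPM in lung FAPs (SD, n = 4 and 5; log2 fold change 3.35 ± 0.38, adjusted p = 5.36e-06). Against MEFs, 21 were higher and 6 lower in muscle FAPs, and 19 were higher and 6 lower in lung FAPs. The interferon regulatory factor Irf1 led both, with 894 ± 114 CPM in muscle FAPs and 688.5 ± 126 CPM in lung FAPs, against 11.1 ± 0.358 CPM in MEFs (6.33 and 5.95 on the log2 scale).

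The kinases upstream went both ways. Of 16 genes of the ERK cascade, 6 were higher and 3 lower in muscle FAPs than in lung FAPs, 5 higher and 7 lower in muscle FAPs than in MEFs, and 6 higher and 8 lower in lung FAPs than in MEFs. Of 13 genes of the JNK and p38 cascades the counts were 5 and 3, 5 and 5, and 5 and 7 in the same order. Between muscle and lung FAPs, Rps6ka3, an ERK-activated kinase, was the gene named from the ERK list (0.79 ± 0.18), and Map2k3, a p38 activator, that from the other list (1.197 ± 0.10). Mapk13, a p38 kinase under the 5 CPM minimum, was lower by more, at 0.695 ± 0.442 CPM in muscle FAPs and 3.92 ± 1.22 CPM in lung FAPs (SD, n = 4 and 5; log2 fold change −2.49 ± 0.49, edgeR adjusted p = 5.53e-05). Of 13 SRF, ELK, MRTF and CREB factors and their coactivators, 6 were higher and 1 lower in muscle FAPs than in lung FAPs; 6 and 3, and 7 and 4, were higher and lower in muscle and in lung FAPs than in MEFs. Srf itself was the lower one (−0.68). Elk4, an SRF partner, led the first (1.13 ± 0.17), and Elk3, another, was lower in both FAP groups than in MEFs (−2.05 and −2.07).

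Of 11 other inhibitors of MAP kinase signalling (SPRY, SPRED and DUSP genes), 9 were higher in muscle than in lung FAPs and 2 did not pass. The 9 were not all inhibitors of ERK alone, since they included the phosphatases Dusp8 and Dusp16 (0.73 and 0.38 on the log2 scale). They also included Dusp9, which lay under the 5 CPM minimum in both FAP groups. Spred1, which restrains RAS, averaged 178 ± 30.1 CPM in muscle FAPs and 43.3 ± 6.17 CPM in lung FAPs (SD, n = 4 and 5; log2 fold change 2.04 ± 0.16, adjusted p = 2.88e-08). Against MEFs this list went both ways, with 6 higher and 4 lower in muscle FAPs and 3 higher and 5 lower in lung FAPs. Dusp4, a nuclear MAP kinase phosphatase, was at 10.8 ± 1.53 CPM in muscle FAPs against 165 ± 7.19 CPM in MEFs (−3.93 ± 0.11), and Dusp9 at 0.109 ± 0.180 CPM in lung FAPs against 17.5 ± 1.84 CPM in MEFs (−7.24 ± 0.51). In 7 other SOCS family genes, 4 were higher in muscle than in lung FAPs and 3 did not pass, 5 were higher and 2 lower in muscle FAPs than in MEFs, and 4 higher and 2 lower in lung FAPs than in MEFs. Socs1 led the first (1.49 ± 0.18) and Socs2 both others (3.47 ± 0.13 and 3.49 ± 0.20).

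In the NF-kB pathway, 8 of 14 genes were higher and 2 lower in muscle FAPs than in lung FAPs. Its inhibitors did not move together: Nfkbib and Nfkbie of this list were higher (1.12 and 0.97 on the log2 scale), and the member Nfkbia was lower. Nfkb1, the p105/p50 subunit, averaged 841 ± 210 CPM in muscle FAPs and 137 ± 23.5 CPM in lung FAPs (SD, n = 4 and 5; log2 fold change 2.62 ± 0.22, adjusted p = 1.37e-08). Against MEFs, 10 were higher and 1 lower in muscle FAPs, and 11 were higher in lung FAPs with 3 not passing, led by the atypical IkB Bcl3 (7.02 ± 0.21 and 6.66 ± 0.21). Of 11 further bZIP partners, 6 were higher and 2 lower in muscle than in lung FAPs. Against MEFs, 9 were higher in muscle FAPs with 2 not passing, and 6 were higher and 3 lower in lung FAPs. The deadenylation machinery served by ZFP36 and BTG proteins had 3 of 14 genes higher and 1, Cnot10, lower in muscle than in lung FAPs, with Tob2 named from them (0.97 ± 0.20), and went both ways against MEFs, with 5 and 7, and 5 and 6, higher and lower in muscle and in lung FAPs.

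The heat-shock response, another early stress programme, was higher in muscle FAPs than in either other group: 12 of 13 listed genes were higher than in lung FAPs and 12 of 13 higher than in MEFs, and Hsf1, the factor that drives the response, did not pass in either. In lung FAPs, 5 were higher and 6 lower than in MEFs. The 13 genes summed to between 37390 and 48120 CPM in muscle FAPs, between 4838 and 6622 CPM in lung FAPs, and between 7094 and 7391 CPM in MEFs. Hspa1b averaged 4417 ± 496 CPM in muscle FAPs and 90.7 ± 19.3 CPM in lung FAPs (SD, n = 4 and 5), and since Hspa1a and Hspa1b are nearly identical in sequence, the share of reads given to each is uncertain. The part of this response in the members' differences was not tested.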

How the data were processed

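The submitters' processing notes name Bowtie2 2.1.0.0, the build mm10, HTSeq and edgeR for the 13 libraries, with no order or further settings. The annotation and the strand setting are not stated in the sources used here, so overlapping and antisense genes cannot be told apart. The deposited table holds the authors' read count per gene and library, with no column of other samples. Counts were scaled by TMM and fitted with edgeR 4.0.16 (R 4.3.3; filterByExpr, glmQLFit with robust dispersion, glmQLFTest), all 13 libraries in 1 fit with group as the only factor, and p-values were adjusted by Benjamini-Hochberg over 15412 genes and called under 0.05. SEs come from log2 CPM with a prior count of 2. The fit was checked on simulated data with known changes.

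Alternatives were DESeq2 1.42.0 (size factors, Wald test), upper-quartile and library-size scaling, no filter, at least 5 CPM in 4 libraries, limma-voom 3.58.1 with sample weights, glmTreat against a 2-fold change, the compared groups alone, a replicate block, each library left out, and lung FAPs 2 and 3, or 2 and 4, left out. The members, lists and the log2 minimum of 4 were chosen with earlier results of these data known. Values in every library are given for the 6 called members with the largest change in each comparison and at least 5 CPM, the 5 widest within each FAP group at 20 CPM or more, and the 5 with the highest mean; others were added after their values were seen. Of each pathway list, the called gene with the largest change between muscle and lung FAPs is named, a mean of 5 CPM being required on the higher side, except 1 that is not reported here; against MEFs it is named for some lists. Coordinates and exon lengths are from GENCODE M21 (GRCm38), promoters from RefSeq (GRCm38.p6). Hras was not found under that symbol. No 2 libraries of a group agreed within sampling noise.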

Additional observations from a re-analysis of the deposited data

Results flagged for a closer look

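Of 129 tests of a single library against its own group, 5 stood out by Dixon's criterion at the 95% level, where chance alone gives about 1 in 20. Jund was at 187 CPM in lung FAP 2, against 302 to 343 CPM in the other 4 lung FAP libraries. Nfkbia was at 647 CPM in muscle FAP 3, against 448 to 480 CPM in the other muscle FAP libraries, and Rhob was at 657 CPM in muscle FAP 5, against 471 to 501 CPM. Csrnp1 was at 60.3 CPM in MEF 3, against 45.2 to 47.4 CPM in the other MEF libraries. Maff was at 44.7 CPM in MEF 1, against 46.6 to 46.9 CPM, a narrow range in which a small step stands out.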

How the results depend on the processing

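Members called higher numbered 22 for muscle over lung FAPs, 40 for muscle FAPs over MEFs and 35 for lung FAPs over MEFs, and 21 to 26, 39 to 40 and 34 to 35 when 1 library was left out. Members called lower numbered 4, 1 and 3, and 4 to 5, 0 to 2 and 3 to 4 when 1 library was left out, with Dusp6 leaving or Dusp5 entering in muscle FAPs over MEFs, and Dusp10 entering in lung FAPs over MEFs without lung FAP 4. The 1 member lower in muscle FAPs than in MEFs became 2 with DESeq2 size factors, upper-quartile scaling, library size only, the DESeq2 Wald test, limma-voom or without lung FAPs 2 and 4, and 0 with the filter of 5 CPM. Genes called of all kinds, 7424, 11326 and 11464, numbered 6355 to 7556, 10707 to 11515 and 10976 to 11588 without 1 library. By its construction, glmTreat against a 2-fold change called fewer: 1934, 5892 and 5944 genes, with 8, 33 and 29 members higher and 1, 0 and 0 lower.

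Library size only gave 9 members lower in muscle than in lung FAPs and 5 lower in lung FAPs than in MEFs, and took the median ratio of highest to lowest muscle FAP library over the members to 1.315 (1.357 with TMM). It turned the sign of 12 uncalled members for muscle over lung FAPs: Fosl2 to −0.36 (adjusted p = 0.0161), Dusp2 −0.41, Fos −0.32, Nfkbiz −0.27, Klf10 −0.26, Zfp36l2 −0.19, Pim1 −0.12, Dusp5 −0.11, Csrnp1 −0.10, Zfp36l1 −0.067, Ier3 −0.0395 and Atf3 −0.0025. Rhob turned to −0.0541 for lung FAPs over MEFs. Without lung FAPs 2 and 4, the lung pair in which the added members were lowest, 7 members were lower in muscle than in lung FAPs. The other turns of sign were also in uncalled members near 0, and the cause was not tested. For muscle over lung FAPs, Fos was −0.11 to 0.31, Fosl2 −0.035 to 0.13, Dusp2 −0.19 to 0.46 and Socs3 −0.30 to 0.0065 without 1 library, and for lung FAPs over MEFs Rhob was −0.0778 to 0.24. With upper-quartile scaling, Fos turned to −0.008, Fosl2 to −0.0292 and Dusp2 to −0.0471. Without lung FAPs 2 and 3, Fos turned to −0.14, Fosl2 to −0.0534 and Nfkbiz to −0.0282. Without lung FAPs 2 and 4, Fos turned to −0.31, Fosl2 to −0.0936, Nfkbiz to −0.15 and Zfp36l2 to −0.0744.

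Over all tested genes, deviations from the group means correlated at −0.05 to 0.062 between libraries with the same replicate number. The labels do not say whether equal numbers pair samples, and a pairing that touched few genes could give such values too. With the replicate block, 6805, 10817 and 11121 genes were called, with 23, 40 and 34 members higher and 4, 0 and 4 lower, in the order used above. Depth limited Dusp2 and, in MEFs, Egr3, which lie near or under 1 CPM.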
